A study of Homo sapiens with 6 samples.

Results

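The enzymes described here trim and rebuild asparagine-linked glycans (N-glycans) in the Golgi apparatus. The set holds 9 genes, taken from the deposited count table by their mouse Ensembl gene identifiers (IDs): Man1a, Man1a2, Man2a1, Mgat1, Mgat2, Mgat5, Fut8, B4galt1 and St6gal1. All 9 IDs were among the 34866 rows of the table, and 8 of them passed the filter on low counts that left 11400 IDs for testing. The symbols come from the list that defines the set, since the table pairs no ID with a name, and they were not checked against a mouse annotation here.

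An N-glycan enters the Golgi as a mannose-rich chain. Mannosidases trim it, Mgat1 adds the first N-acetylglucosamine, a further mannosidase (Man2a1) opens the other arm, and Mgat2 adds N-acetylglucosamine there, which commits the chain to the complex type. Mgat5 adds a further branch, Fut8 fucosylates the core, B4galt1 adds galactose and St6gal1 can cap the chain with sialic acid. GOLPH3 is a Golgi membrane protein that binds the tails of several Golgi glycosyltransferases and helps to return them to the right cisterna.

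The 6 RNA sequencing libraries are labelled as MKN45, an established human gastric adenocarcinoma line described by the design as negative for the mucin MUC6. In 3 libraries the cells had received an adenovirus with a control short hairpin RNA (shRNA), and in 3 an adenovirus with an shRNA against GOLPH3, so both groups were exposed to virus and hairpin. The labels do not say whether samples with 1 hairpin were separate cultures, or how many hairpins were used, so the error behind each p-value is the scatter of these libraries and may be technical. The GOLPH3 shRNA samples are titled sh1 to sh3, which may number hairpins or replicates. They are called replicates 1 to 3 here. The comparison asks how expression differs between the GOLPH3 shRNA and the control shRNA samples.

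Reads were counted on mouse gene models (build mm10, per the submitters' processing notes) although the cells are labelled human, and the table does not settle which organism the reads came from. A level is therefore not read as the abundance of the human transcript, fold changes compare the same ID between libraries. Where the counts of 2 genes are divided within a library, the ratio is compared between libraries only, and its size says nothing of which gene is more abundant. Control libraries held 6286946 to 7355057 counts and GOLPH3 shRNA libraries 4977592 to 5676063, so the groups do not overlap in depth. Values are given in CPM, which puts the counts of all libraries on 1 scale by their totals and trimmed mean (TMM) factors. The level of GOLPH3 and the markers of gastric epithelium and of other cell types were not analysed here, because no symbols could be tied to other IDs, and the knockdown is unchecked. In bulk RNA, fewer cells of a kind and less RNA per cell cannot be told apart.

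Upstream sequences are shown for the promoters of 3 human genes with the symbols of members: MGAT2 and MGAT5, whose IDs fell, and B4GALT1, whose ID was not called. They are the RefSeq promoter sequences (build GRCh38.p14) cut to the stretch before the start that no exon in GENCODE release 29 covers, 5′ to 3′ on the strand of the gene, with capitals marking a GC box (GGGCGG) or a CCAAT box (CCAAT) on either strand. MGAT2 lies at chr14:49620686-49620794 on the plus strand, MGAT5 at chr2:134119685-134119934 on the plus strand, and B4GALT1 at chr9:33167357-33167586 on the minus strand. FUT8, whose ID also fell, is not shown, and its stretches free of exons held neither box. Man1a2, whose ID fell as well, had no promoter entry under its symbol. Of the 2 MGAT5 starts, the one shown held both boxes and the other held neither.
MGAT2: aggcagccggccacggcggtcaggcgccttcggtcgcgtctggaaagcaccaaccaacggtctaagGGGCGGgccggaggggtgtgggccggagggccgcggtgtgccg
MGAT5: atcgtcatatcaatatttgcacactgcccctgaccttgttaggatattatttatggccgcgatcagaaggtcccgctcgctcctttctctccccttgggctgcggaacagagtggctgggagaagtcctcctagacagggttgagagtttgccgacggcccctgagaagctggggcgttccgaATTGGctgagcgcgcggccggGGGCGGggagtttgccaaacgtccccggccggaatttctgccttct
B4GALT1: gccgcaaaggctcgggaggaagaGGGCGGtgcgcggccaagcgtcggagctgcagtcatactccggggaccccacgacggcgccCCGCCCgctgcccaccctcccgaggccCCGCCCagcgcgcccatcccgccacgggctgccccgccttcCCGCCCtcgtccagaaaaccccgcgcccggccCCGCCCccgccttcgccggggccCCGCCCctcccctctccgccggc
The MGAT2 stretch lies between 2 annotated genes: exons of RPL36AL, a ribosomal protein gene on the opposite strand, cover part of the 250 bases before the MGAT2 start.

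In all, 7 of the 9 members had RefSeq promoters under the same symbol, with 16 starts between them. Man1a and Man1a2 had none, so no window stands for them. Over the full 250 bases before the start, the single MGAT2 window and 1 of the 2 MGAT5 windows held both a GC box and a CCAAT box. Of the 3 FUT8 windows, 1 held 2 CCAAT boxes and another held 2 GC boxes. The CCAAT box of MGAT2 lies in the part of the window covered by RPL36AL and is not in the stretch shown. A CCAAT box was thus in 3 of the 16 member windows, while 32% of all 35116 RefSeq promoter windows of this length held one. A GC box was in 10 of the 16 member windows and in 42.6% of all windows. All 7 members with promoters had a GC box in at least 1 window, whether or not their IDs fell. The member windows are not all separate: 2 of the 6 MGAT1 windows overlap, as do the 2 B4GALT1 windows. The Golgi stress element ACGTGGC is known as a binding site of TFE3. It was in 1 of the 6 MGAT1 windows and in no window of the other members with promoters, against 2.78% of all windows. These matches describe the letters of human promoters and were chosen for display after the fold changes had been seen.

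Of the 8 members tested, Mgat2, Man1a2, Fut8 and Mgat5 fell with GOLPH3 shRNA, none rose, and Man1a, Man2a1, Mgat1 and B4galt1 were not called. A call is an adjusted p below 0.05 in edgeR's quasi-likelihood test, with the Benjamini-Hochberg adjustment over all 11400 IDs. Calls in either direction took 33.9% of the tested IDs, with 17.8% lower and 16.1% higher. Among the 5435 tested IDs whose mean level lay within the range of these members, 21.5% were called lower. The count of 0 members higher was the same with DESeq2 and with limma-voom, and 1 member (Man1a) was higher at an unadjusted p below 0.05 in edgeR. The median log2 fold change was -0.30 over the 8 members and 0.0019 over all tested IDs, and 62.5% of the members lay below 0 against 49.9% of all IDs. In 1 random thinning of all libraries to the smallest total, 5 members were called lower, the 4 named and Man2a1. That fit called 1947 of its 11082 tested IDs lower. With so few members these shares describe the set and do not set it apart.

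**Figure D1:**
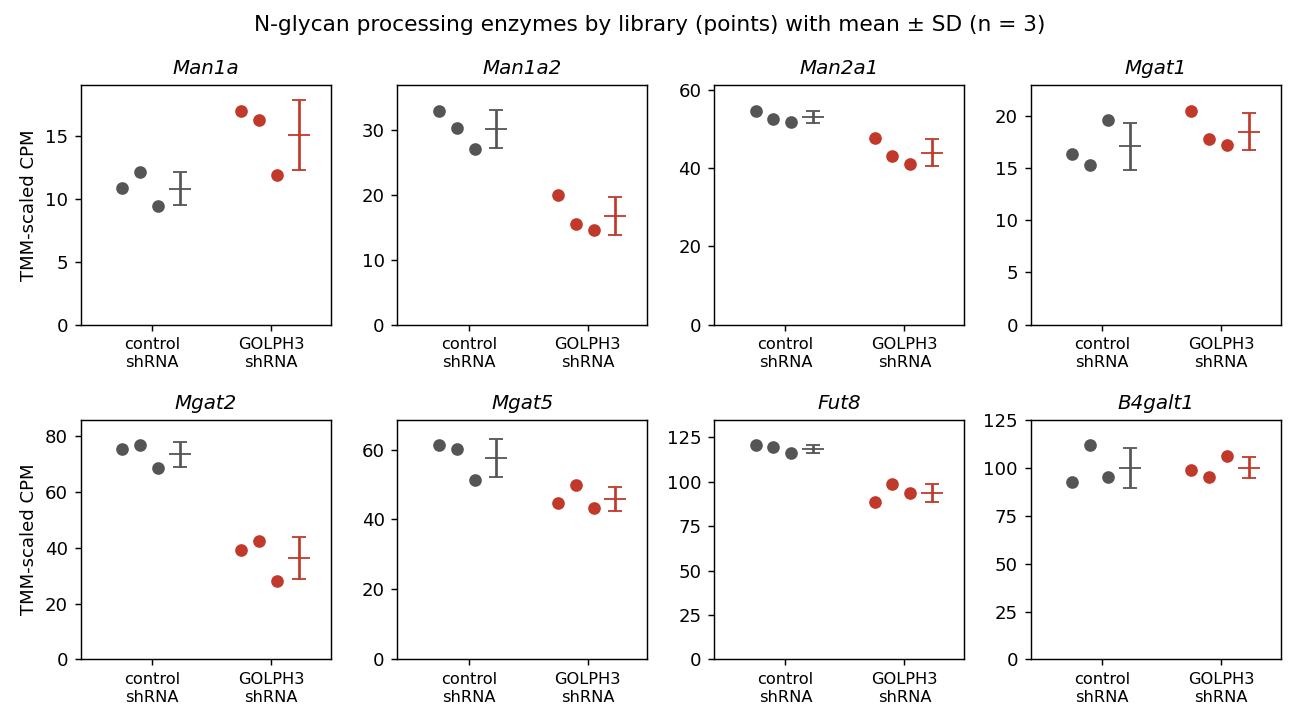
TMM-scaled CPM (vertical axis, from 0) of the 8 tested members in each library, with 3 control shRNA points in grey and 3 GOLPH3 shRNA points in red; bars beside the points give mean ± SD. The 2 groups do not overlap for Man1a2, Man2a1, Mgat2, Mgat5 and Fut8, and overlap for Man1a, Mgat1 and B4galt1. Of all tested IDs, 24.2% had all 3 GOLPH3 shRNA values below all 3 control values.

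The mannosidases come first in the pathway. Man1a (ENSMUSG00000003746) and Man1a2 (ENSMUSG00000008763) encode the Golgi class I mannosidases IA and IB, paralogs that trim the same mannose-rich chains. Man1a2 fell, and Man1a did not pass the test. Man1a2 stood at 33.0, 30.3 and 27.1 CPM in control replicates 1, 2 and 3. With GOLPH3 shRNA it stood at 20.1, 15.6 and 14.6 CPM. Every GOLPH3 shRNA library was below every control library, an arrangement seen in this direction for 24.2% of all tested IDs. The fall was 1.80-fold (95% interval 1.43 to 2.27), or -0.85 in log2 units (SE 0.16, edgeR adjusted p = 0.0006). The counts behind it were 172 to 222 in the control and 81 to 99 in the GOLPH3 shRNA libraries, none with a fractional part.

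Man1a had few counts, from 60 to 91 in a library, and its values scattered more. The control libraries gave 10.9, 12.1 and 9.46 CPM. GOLPH3 shRNA replicates 1 and 2 gave 17.0 and 16.3 CPM, above all controls, and replicate 3 gave 11.9 CPM, below control replicate 2. The log2 fold change was 0.47 (SE 0.20, 95% interval 0.041 to 0.90) and did not pass the test (edgeR adjusted p = 0.084). Without GOLPH3 shRNA replicate 3 it was 0.61 and was called (edgeR adjusted p = 0.042).

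The ratio of the paralogs was taken inside each library, where scaling cancels. Man1a had 0.330, 0.401 and 0.349 counts per Man1a2 count in control replicates 1, 2 and 3, and 0.848, 1.05 and 0.815 in the GOLPH3 shRNA replicates. All GOLPH3 shRNA ratios were above all control ratios. The mean log2 ratio went from -1.48 ± 0.14 to -0.16 ± 0.19 (SD, n = 3), a difference of 1.32 or 2.50-fold, with an exact two-sided permutation p = 0.1 (0.15 adjusted over 3 ratios). A p of 0.1 is the smallest that 3 against 3 libraries can give.

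Man2a1 (ENSMUSG00000024085), which encodes Golgi mannosidase II, acts after Mgat1 and removes the mannoses that block the other arm. It stood at 54.6, 52.5 and 51.8 CPM in the controls and at 47.6, 43.0 and 41.0 CPM with GOLPH3 shRNA. The groups did not overlap, yet the difference lay just outside the threshold: the log2 fold change was -0.27 (SE 0.10, 95% interval -0.49 to -0.055, edgeR adjusted p = 0.0507). It was called after a filter of 1 CPM in 3 libraries (edgeR adjusted p = 0.0495), after thinning all libraries to the smallest total (edgeR adjusted p = 0.035) and without GOLPH3 shRNA replicate 1 (edgeR adjusted p = 0.041).

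**Figure D2:**
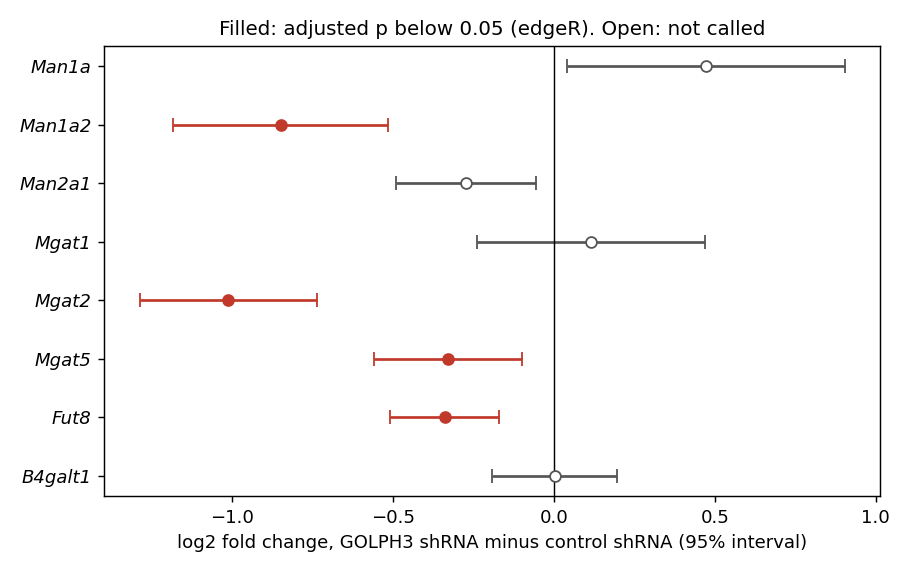
Log2 fold change of each tested member (horizontal axis, GOLPH3 shRNA minus control shRNA) with its 95% interval from the edgeR fit; filled red points had an adjusted p below 0.05. Mgat2 (-1.01) and Man1a2 (-0.85) lie farthest to the left, and Man1a (0.47) farthest to the right.

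Of the N-acetylglucosaminyltransferases, Mgat2 and Mgat5 fell and Mgat1 did not pass the test. Mgat2 (ENSMUSG00000043998), which builds the other antenna of complex N-glycans, showed the lowest fold change of the set. It stood at 75.5, 76.6 and 68.4 CPM in the controls and at 39.1, 42.3 and 28.0 CPM with GOLPH3 shRNA. The GOLPH3 shRNA values were all below the controls and spread more widely among themselves, with a coefficient of variation of 20.5% against 6.07%. The fall was 2.02-fold (95% interval 1.67 to 2.44), or -1.01 in log2 units (SE 0.13, edgeR adjusted p = 2.26e-05). Of all tested IDs, 2.91% were called lower with at least a 2-fold change, and 3.28% had a lower log2 fold change than Mgat2. GOLPH3 shRNA replicate 3 was the lowest library, and without it the log2 fold change was -0.86 (edgeR adjusted p = 4.25e-05).

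Mgat1 (ENSMUSG00000020346), the entry enzyme to hybrid and complex chains, stood at 16.3, 15.3 and 19.5 CPM in the controls and at 20.5, 17.7 and 17.2 CPM with GOLPH3 shRNA. The groups overlapped, and the log2 fold change was 0.11 (SE 0.17, 95% interval -0.24 to 0.47, edgeR adjusted p = 0.63). Its 95 to 124 counts a library leave room for changes from 1.18-fold lower to 1.38-fold higher.

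Mgat5 (ENSMUSG00000036155), which makes the branch that often carries poly-N-acetyllactosamine, stood at 61.2, 60.3 and 51.4 CPM in the controls and at 44.6, 49.8 and 43.2 CPM with GOLPH3 shRNA. The groups did not overlap, but control replicate 3 and GOLPH3 shRNA replicate 2 lay close together. The fall was 1.26-fold (95% interval 1.07 to 1.47), or -0.33 in log2 units (SE 0.11, edgeR adjusted p = 0.027). This call was lost without control replicate 1 (edgeR adjusted p = 0.087), control replicate 2 (0.095), GOLPH3 shRNA replicate 1 (0.083) or GOLPH3 shRNA replicate 3 (0.077).

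Against Mgat1 in the same library, Mgat2 had 4.62, 5.02 and 3.50 counts per Mgat1 count in the controls and 1.91, 2.38 and 1.63 with GOLPH3 shRNA. The groups did not overlap, and the mean log2 ratio was 2.11 ± 0.27 against 0.96 ± 0.27, a difference of -1.15 (SD, n = 3, exact two-sided permutation p = 0.1, 0.15 adjusted over 3 ratios). For Mgat5 the same ratio was 3.74, 3.95 and 2.63 in the controls and 2.18, 2.81 and 2.52 with GOLPH3 shRNA. Control replicate 3 lay below GOLPH3 shRNA replicate 2, and the difference of -0.45 on the log2 scale gave an exact two-sided permutation p = 0.2 (0.2 adjusted).

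**Figure D3:**
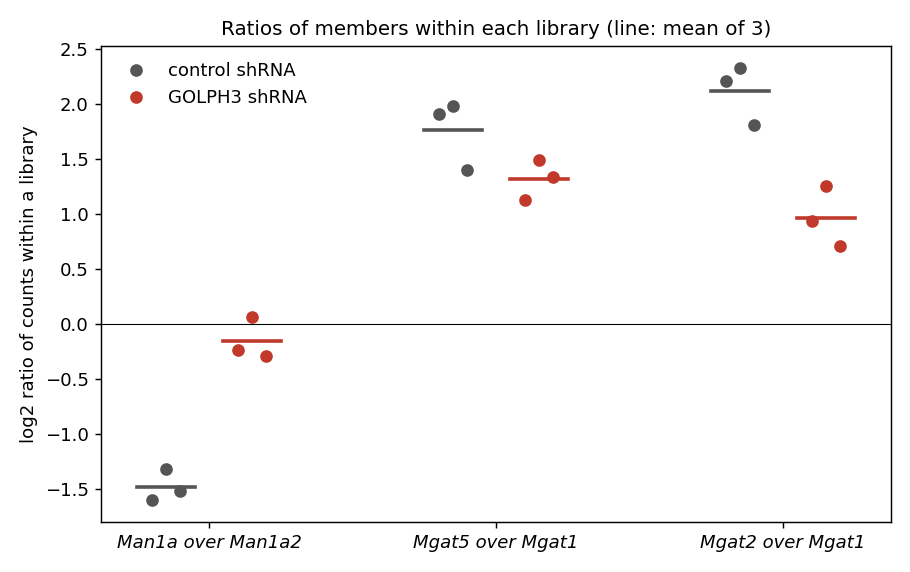
Log2 ratio of the counts of 2 members within each library (vertical axis) for the 3 pairs tested, with control shRNA in grey, GOLPH3 shRNA in red and a line at the mean of 3 libraries. The groups do not overlap for Man1a over Man1a2 and for Mgat2 over Mgat1, and overlap for Mgat5 over Mgat1.

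The last enzymes decorate the chain. Fut8 (ENSMUSG00000021065), the core fucosyltransferase, stood at 120.5, 119.3 and 116.0 CPM in the controls and at 88.6, 98.7 and 93.8 CPM with GOLPH3 shRNA. The controls were tight, with a coefficient of variation of 1.97%, and every GOLPH3 shRNA value was below them. The fall was 1.27-fold (95% interval 1.13 to 1.42), or -0.34 in log2 units (SE 0.080, edgeR adjusted p = 0.0037). Its deposited counts had a fractional part in 2 libraries, and those of Mgat5, B4galt1 and Man2a1 in 1 library each.

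B4galt1 (ENSMUSG00000028413), a galactosyltransferase of the late Golgi, stood at 92.9, 112.0 and 95.3 CPM in the controls and at 99.1, 95.6 and 106.3 CPM with GOLPH3 shRNA. The groups overlapped fully. The log2 fold change was 0.0024 (SE 0.091, edgeR adjusted p = 0.99), and its 95% interval ran from -0.19 to 0.20, that is from 1.14-fold lower to 1.15-fold higher.

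St6gal1 (ENSMUSG00000022885), a sialyltransferase that caps galactose, was at 0 counts in all 6 libraries and was not tested. A count of 0 allows up to 3 counts, or 0.408 to 0.603 CPM depending on the library, for counting error only. Since reads were assigned to mouse gene models, this value does not show that the human gene was silent. The planned ratio of St6gal1 to B4galt1 could not be formed.

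**Figure D4:**
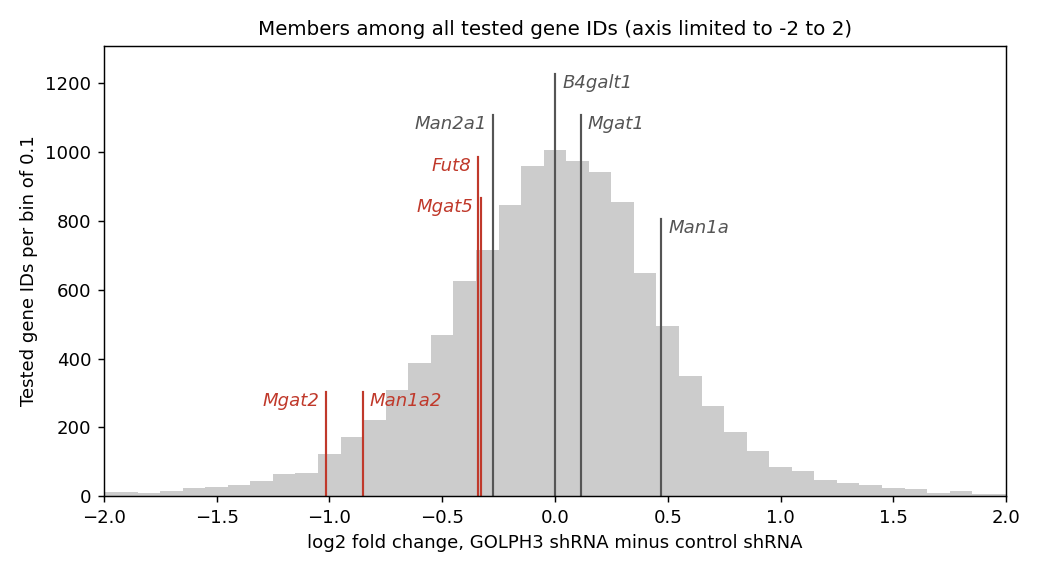
Histogram of the log2 fold changes of the tested IDs (bins of 0.1, horizontal axis limited to -2 to 2) with lines at the 8 members, red where the adjusted p was below 0.05; line heights only separate the names. Mgat2 and Man1a2 lie in the lower tail, Fut8, Mgat5 and Man2a1 on the lower shoulder, and B4galt1 at the centre.

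Likeness between members was measured over the 6 libraries. Fut8 and Man2a1 were the closest pair, with log2 CPM values, centred on the control mean, that differed by 0.063 on average. Mgat2 and Man1a were the farthest pair, at 0.78. Mgat2 and Man1a2 differed by 0.17, and both lay at -0.57 or lower in each GOLPH3 shRNA library on this scale. Ranked by fold change from lowest to highest, the order was Mgat2, Man1a2, Fut8, Mgat5, Man2a1, B4galt1, Mgat1 and Man1a. The 95% intervals of neighbours in this order overlap, except those of Man1a2 and Fut8, and Man1a2 overlaps Mgat5. Differences between members were tested only by the 3 ratios. With 3 against 3 libraries the exact permutation p cannot fall below 0.1, so no ratio could reach the threshold used for calls. That test therefore cannot decide whether members differed. The groups did not overlap for Man1a over Man1a2 and for Mgat2 over Mgat1, and overlapped for Mgat5 over Mgat1. The order of all members is a description.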

How the data were processed

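For 6 libraries, estimated counts by gene ID were deposited by the authors in 1 table. Per the labels' protocols, libraries were made with a stranded kit for messenger RNA, and the submitters' processing notes name build mm10. For the quantifier, annotation, strand setting and filters, the sources used here give nothing. Counts were rounded, filtered with filterByExpr (11400 of 34866 IDs, 99.7% to 99.8% of counts) and compared with edgeR 4.0.16 in R 4.3.3 (TMM factors, quasi-likelihood F test, Benjamini-Hochberg over all tested IDs). SE is the log2 fold change divided by the root of F. The fit was tested on simulated data in which far fewer IDs changed than were called here. That test does not cover changes this broad. Log2 CPM used a prior count of 2. Ratios used exact permutation. Alternatives included DESeq2 1.42.0 and limma 3.58.1. All 9 members were named, by rule. The members and lists were chosen with earlier results of these data known. Lists of other pathway genes and cell type markers, fixed by symbol, were not analysed here, since the gene tables used are human.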

Additional observations from a re-analysis of the deposited data

How the results depend on the processing

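Mgat2, Man1a2 and Fut8 were called lower in each of 16 alternatives (5 scalings or tests, 2 filters, no rounding, the replicate block, thinning and 6 leave-one-out fits), with log2 fold changes of -1.14 to -0.86, -0.999 to -0.768 and -0.38 to -0.31. Mgat5 kept its direction in all 16 and its call in 12, and lost it only when 1 of 4 libraries was left out (leave-one-out range -0.41 to -0.29). Man2a1 became called with the 1 CPM filter (-0.28) and with thinning (-0.33), and its leave-one-out range was -0.34 to -0.23. Man1a ranged from 0.37 to 0.61 over the leave-one-out fits, so that 0 or 1 members were called higher. The number called lower was 3 to 5. Mgat1 and B4galt1 were called in none, and the median over all IDs moved by under 0.1 in log2 units between scalings. In the replicate block fit, Mgat2 was at -1.02, Mgat5 at -0.33 and 4 members were called lower, with 1842 IDs higher and 2045 lower in all. Deviations of samples with the same number correlated at 0.032, 0.090 and 0.044, and those of samples with different numbers at -0.0855 to 0.0373. The labels do not say that the numbers mark pairs. The ratio differences kept their direction when 0.5 was added to each count or a library was left out. Alternatives for the other pathway genes and the St6gal1 ratio were not run. Counts were low for Man1a, Man1a2 and Mgat1, at 60 to 222 a library, and St6gal1 had none.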
